A study of Mus musculus with 35 samples.

Results

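The corticotropin-releasing hormone system comprises the peptides corticotropin-releasing hormone and the urocortins, their receptors and a protein that binds the peptides outside cells. Its members were taken by gene name: the ligands Crh, Ucn and Ucn3, the receptors Crhr1 and Crhr2 and the binding protein Crhbp. All 6 were found among the 52636 genes of the count files. Ucn2, a further ligand of the family, was not a member and is given with the other genes of the pathway.

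Polyadenylated RNA was sequenced in single reads of 72 bases from basolateral amygdala cells captured by laser in frozen brain sections of female mice of the inbred strain C57BL/6J and the hybrid strain B6D2F1N. Mice lived in standard or in enriched housing, where a playground was open for 1 h per day from postnatal day 77. They were trained under food restriction for a cognitive judgement bias test from postnatal day 70, for 37 to 90 days, and brains were taken after that test, so the mice of every group were adult and their age varied with the training time. The 35 libraries came from 19 mice, 8 of C57BL/6J and 11 of B6D2F1N, with 16 anterior and 19 posterior portions of the amygdala; the published sample table lists more anterior portions than were deposited. Standard-housed C57BL/6J mice gave 4 anterior and 4 posterior libraries and enriched C57BL/6J mice gave 2 and 4. Standard-housed B6D2F1N mice gave 5 and 5, and enriched B6D2F1N mice gave 5 and 6. Both portions were available for 16 mice, 6 of C57BL/6J and 10 of B6D2F1N. Libraries held 16938534 to 27352623 gene counts (median 21409708), so that 3 counts, the floor used here, corresponded to 0.11 to 0.177 CPM (counts scaled to a common library total). The published methods list the positions of the portions along the brain in the reverse of the anatomical order. Portions are named here as the sample labels name them; whether the names were exchanged was not tested, and an exchange would reverse the sign of every difference between portions.

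Crh, made by neurons of the hypothalamus, starts the hormonal stress response, and it is also made by neurons of the amygdala, where the system is known for its part in fear and anxiety. Crh and the urocortins act through Crhr1 and Crhr2, receptors coupled to G proteins that raise cyclic AMP. Crh acts mainly on Crhr1, Ucn on both receptors and Ucn3 on Crhr2, while Crhbp binds Crh and Ucn and keeps them from the receptors.

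Markers of forebrain neurons were present in every library. Slc17a7, the vesicular glutamate transporter of cortical and basolateral amygdala projection neurons, lay between 72.9 and 888 CPM over the 35 libraries, Camk2a between 774 and 4644 CPM, and Gad1, which makes the inhibitory transmitter GABA, between 149 and 485 CPM. Markers of glia, of the central amygdala and of choroid plexus were also present, and their levels are given after those of the members. Xist, the transcript that silences an X chromosome in female cells, had 1191 to 4831 counts in the libraries of 18 mice. It had 0 counts in both libraries of mouse 12BL, a standard-housed B6D2F1N mouse, and Uty, Kdm5d, Ddx3y and Eif2s3y, which lie on the Y chromosome, had 0 counts in them too. Tested differences that rest on mouse 12BL are given with and without it where a fit without it could be made, and its share of the counts is named for Ucn.

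The promoter sequences of Ucn3, Crhr2 and Crhbp are shown because these members differed in level between the portions. The windows cover 250 bases before and 50 bases after the annotated RefSeq start site on GRCm38.p6. They lie at chr13:3945300-3945599, chr6:55132967-55133266 and chr13:95444782-95445081, each on the minus strand and written 5′ to 3′ along that strand. Capitals mark matches to the TATA box, TATAAA.
Ucn3: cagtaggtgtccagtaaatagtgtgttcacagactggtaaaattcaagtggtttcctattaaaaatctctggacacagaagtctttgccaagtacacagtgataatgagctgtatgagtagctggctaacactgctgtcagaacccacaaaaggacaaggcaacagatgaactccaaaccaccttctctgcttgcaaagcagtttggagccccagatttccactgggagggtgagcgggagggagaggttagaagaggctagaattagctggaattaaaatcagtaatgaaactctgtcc
Crhr2: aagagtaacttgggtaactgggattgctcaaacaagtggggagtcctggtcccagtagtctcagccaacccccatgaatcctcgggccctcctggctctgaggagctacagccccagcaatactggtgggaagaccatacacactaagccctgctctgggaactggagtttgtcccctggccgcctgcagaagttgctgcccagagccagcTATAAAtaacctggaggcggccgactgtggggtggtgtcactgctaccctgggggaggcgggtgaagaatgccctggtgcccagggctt
Crhbp: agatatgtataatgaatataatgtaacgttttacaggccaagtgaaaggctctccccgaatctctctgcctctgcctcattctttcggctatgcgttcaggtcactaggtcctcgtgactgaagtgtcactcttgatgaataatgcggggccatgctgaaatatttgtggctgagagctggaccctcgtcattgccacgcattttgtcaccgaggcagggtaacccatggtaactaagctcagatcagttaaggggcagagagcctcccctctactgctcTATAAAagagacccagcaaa
The TATA box stood 39 bases before the start site in Crhr2 and 30 bases after it in Crhbp, and 13.6% of the 32851 promoters in the table had this match on either strand. None of these 3 windows held the cyclic AMP response element TGACGTCA (1.79% of promoters), the AP-1 site TGANTCA (7.81%) or the E-box CACGTG (7.15%). Among the other members with a promoter in the table, Ucn (chr5:31138846-31139145, minus strand) had the cyclic AMP response element 44 bases before its start site and Crhr1 (chr11:104132531-104132830, plus strand) had none of the 4 motifs. A match is a description of the sequence and does not show that a factor binds there.

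In the basolateral amygdala of these mice Crhbp was the most abundant member per length of transcript. Its mean over the 35 libraries was 96.9 CPM per kb of exon. The means of the other members were 3.54 for Ucn3, 3.27 for Crhr1, 2.05 for Crh, 0.703 for Crhr2 and 0.606 CPM per kb for Ucn. The median for Ucn3 was 0.321 CPM per kb, and few libraries carried most of its counts. That median lay below those of 2.83 for Crhr1, 0.915 for Crh and 0.512 CPM per kb for Crhr2. For Crh, a single anterior library, of mouse 13DR, held 728 of the 1919 counts. In bulk libraries, fewer cells of a type and less RNA per cell cannot be told apart, here and in all values that follow.

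**Figure D1:**
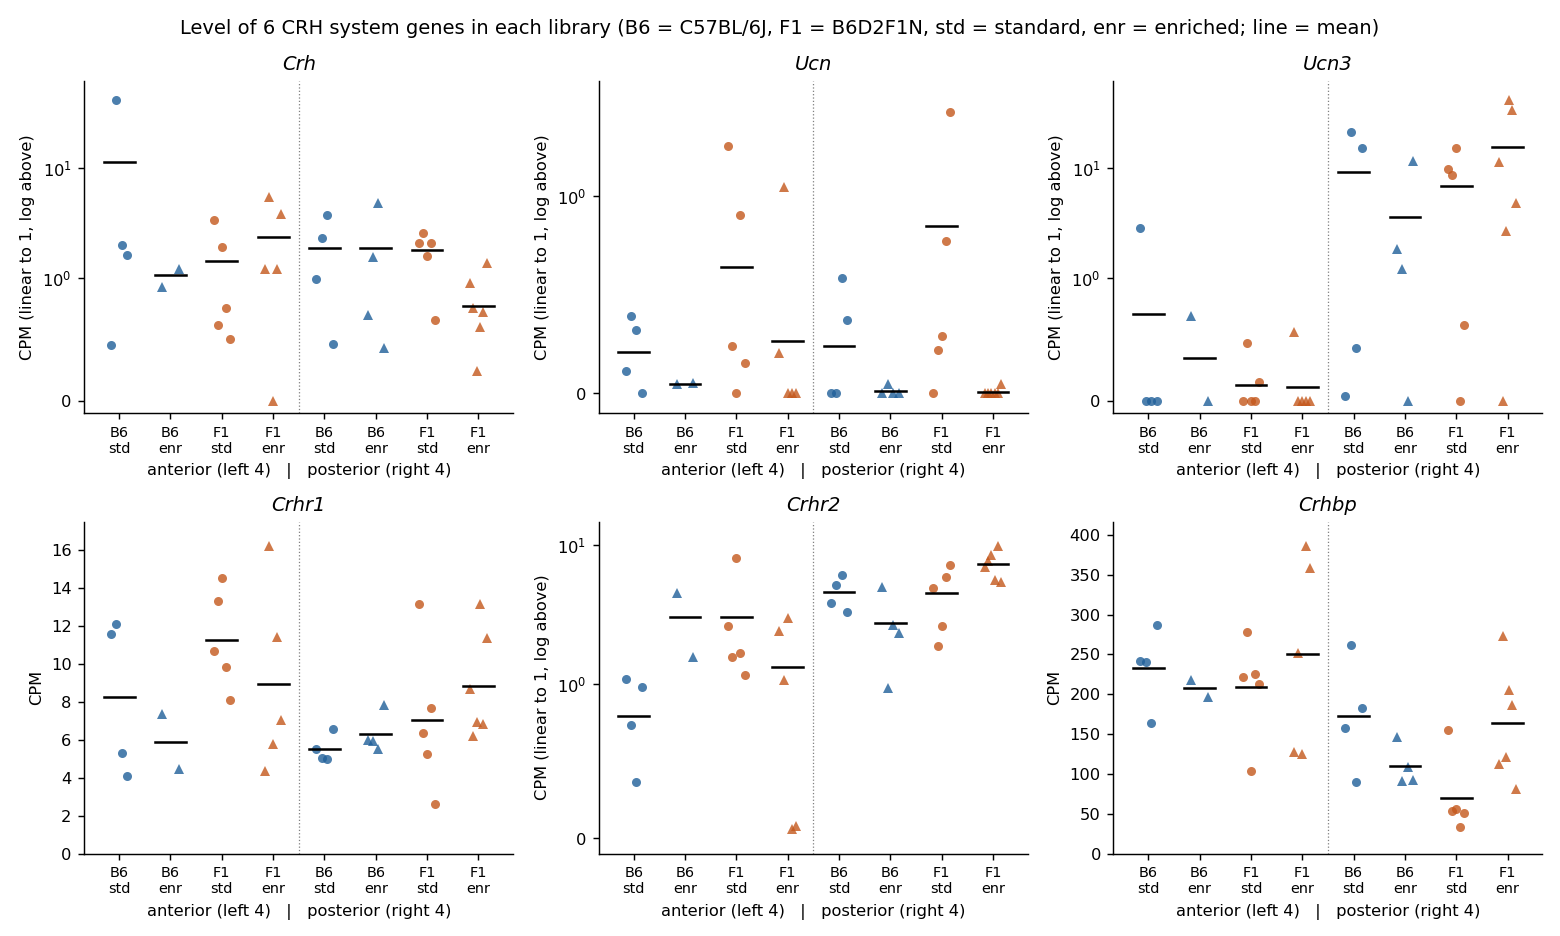
Level of each member in CPM (vertical axis) in the 8 groups of strain, housing and portion (horizontal axis), with 1 point per library and a line for the group mean; the axes of Crh, Ucn, Ucn3 and Crhr2 are linear to 1 and logarithmic above. Ucn3 lies at 0 in 11 of 16 anterior libraries and ranges up to 40.9 CPM in posterior ones.

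The levels of the 6 members were first compared between the posterior and anterior portions of the same mice. The posterior portion had more Ucn3 and Crhr2 RNA and less Crhbp RNA. Crh, Ucn and Crhr1 did not pass the test in either direction. Differences between portions are given as posterior over anterior on the log2 scale, with the mouse as a block. Their p-values measure how these differences within mice spread over mice. Those of the strain, housing and bias comparisons measure the spread between mice. Per the paper, mice shared cages with others of their strain, and the playground was connected to the cage. No fit had a term for the cage, so strain and housing p-values treat cage mates as independent. Over the 16 mice of both strains 2 of 6 members rose and 1 fell (edgeR, adjusted p at most 0.05), against 8.6% of the 29437 genes tested that passed in either direction (3.91% higher and 4.69% lower in the posterior portion). In B6D2F1N alone 1 of 6 members rose and 1 fell, against 4% of 27761 genes (1.62% higher and 2.37% lower). In C57BL/6J alone 0 of 6 members passed in edgeR, against 3.64% of 25751 genes (1.54% higher and 2.1% lower). An unadjusted p under 0.05 was seen for 2 members and 3488 genes, and DESeq2 called 2 members and 1535 genes. The number of genes that passed by edgeR in C57BL/6J was 937, and it was 602 without mouse 21AL and 606 without mouse 23DR. The median log2 difference of the members was -0.27 in C57BL/6J, -0.19 in B6D2F1N and -0.22 over both strains, and that of all genes tested was 0.01, 0.15 and 0.12.

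Among the ligands, Ucn3 (ENSMUSG00000044988, GRCm38 chr13:3940688-3945349), the peptide selective for Crhr2, was nearly absent from the anterior portion. In anterior libraries it ranged from 0 to 2.84 CPM (median 0), with 0 counts in 11 of 16 libraries and at most 3 counts in 12. In posterior libraries it ranged from 0 to 40.9 CPM (median 4.79), with 0 counts in 3 of 19. The groups overlapped at the low end: the highest anterior library, from C57BL/6J mouse 23DR, had 50 counts, and the posterior libraries of mice 12DL, 22ALR and 11DL had none. The posterior libraries with most Ucn3 came from enriched B6D2F1N mice, 40.9 CPM (884 counts) in 13BR and 33.4 CPM in 12CL, followed by 21.3 CPM in the standard-housed C57BL/6J mouse 13DR.

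Ucn3 was higher in the posterior portion in 12 of 16 mice, equal in 3, where both portions had 0 counts, and lower in 1 (23DR, 2.84 CPM anterior and 0.0413 CPM posterior). The log2 difference over both strains was 5.78 ± 1.12 (SE, 16 mice, edgeR adjusted p = 0.00117). In B6D2F1N it was 6.35 ± 0.996 (edgeR adjusted p = 0.00144), with 8 of 10 mice higher and 2 equal. In C57BL/6J it was 4.04 ± 1.95 (edgeR adjusted p = 0.384), with 4 of 6 mice higher. Because most anterior libraries were at or under the floor, these fitted differences depend on the prior count and are no bound. The C57BL/6J result turned on mouse 23DR, without which the difference was 6.33 and passed (edgeR adjusted p = 0.0302, range over mice left out 0.0302 to 0.765). It was lower and did not pass without mouse 13DR (2.30) or mouse 21AL (2.33). With all mice it also passed with no minimum count (edgeR adjusted p = 0.0454, range over the other alternatives 0.0454 to 0.616). Without mouse 12BL the difference was 5.47 over both strains (edgeR adjusted p = 0.00337) and 5.99 in B6D2F1N (edgeR adjusted p = 0.00505).

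**Figure D2:**
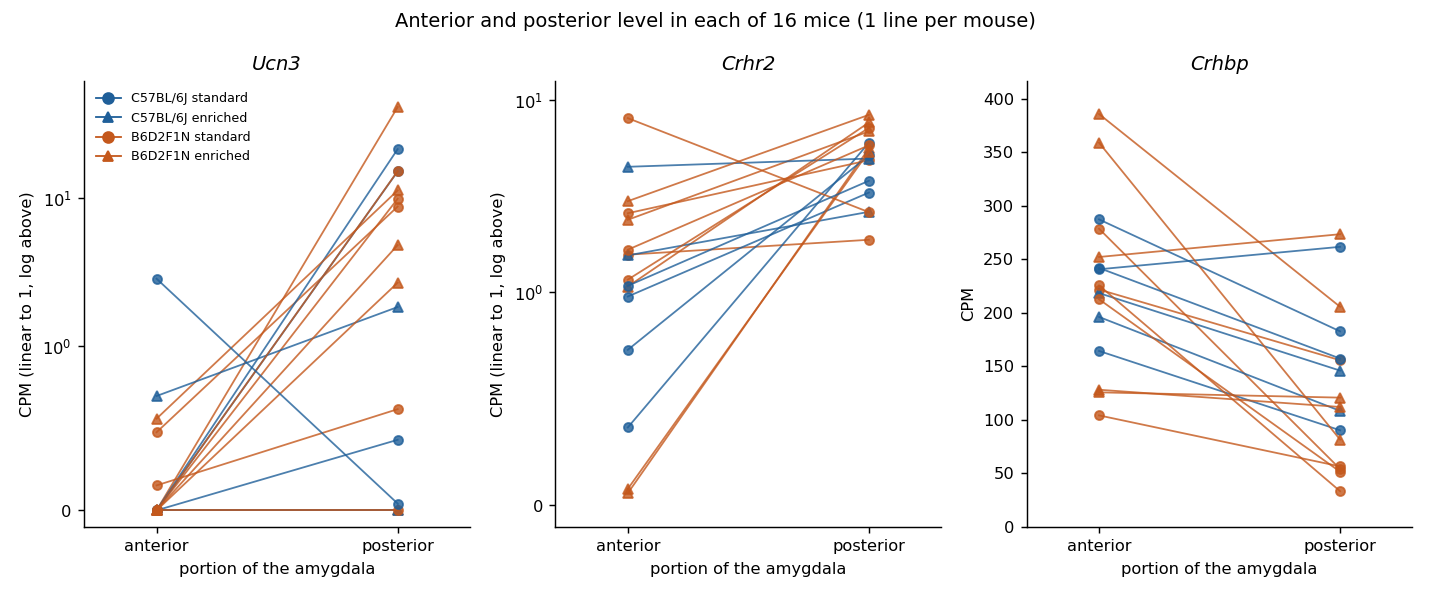
Levels of Ucn3, Crhr2 and Crhbp in CPM (vertical axis, for Ucn3 and Crhr2 linear to 1 and logarithmic above) in the anterior and posterior portion (horizontal axis) of the 16 mice with both, with 1 line per mouse. Crhr2 is higher in the posterior portion in 15 of 16 mice and Crhbp lower in 14 of 16.

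Crh (ENSMUSG00000049796, GRCm38 chr3:19693401-19695396), the ligand that gives the system its name, was low in both portions. It ranged from 0 to 40.8 CPM (median 1.21) in anterior and from 0.238 to 4.76 CPM (median 0.991) in posterior libraries. The groups overlapped, though the anterior libraries of C57BL/6J mouse 13DR (40.8 CPM) and B6D2F1N mouse 11DL (5.48 CPM) lay above every posterior one. The anterior library of mouse 13DR held 728 of the 1264 anterior counts. Crh was higher in the posterior portion in 7 of 16 mice, with a log2 difference of -0.12 ± 0.503 over both strains (edgeR adjusted p = 0.934). Over the alternatives the difference ran from -1.32 to -0.11 in both strains together and from -1.86 to -0.23 in C57BL/6J, and it passed in none. Ucn (ENSMUSG00000038676, GRCm38 chr5:31138063-31138829), the ligand of both receptors, was at or under the floor of 3 counts in 22 of 35 libraries and at 0 in 16. Its 236 counts over all libraries included 67 from a single posterior library, of mouse 23AR, so Ucn is described here by its counts, and its fitted differences, which enter the medians over the members, are given only where they changed sign under an alternative.

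Of the receptors, Crhr2 (ENSMUSG00000003476, GRCm38 chr6:55090049-55133016), which binds Ucn and Ucn3, was low but above the floor in 14 of 16 anterior and in all 19 posterior libraries. It ranged from 0.0575 to 8.05 CPM (median 1.36) in anterior and from 0.971 to 9.72 CPM (median 5.15) in posterior libraries. Most posterior libraries lay above most anterior ones, and the groups overlapped, with the highest anterior libraries in mice 21DL (8.05 CPM) and 21CL (4.49 CPM) and the lowest posterior library in mouse 11AL (0.971 CPM). Crhr2 was higher in the posterior portion in 15 of 16 mice; the exception was 21DL, with 8.05 CPM anterior and 2.61 CPM posterior. The log2 difference over both strains was 1.94 ± 0.471 (SE, edgeR adjusted p = 0.00773). It was 1.83 ± 0.609 in C57BL/6J (higher in 6 of 6 mice, edgeR adjusted p = 0.128) and 1.99 ± 0.655 in B6D2F1N (9 of 10 mice, edgeR adjusted p = 0.108), so neither strain passed alone. In B6D2F1N it was 2.37 and passed without mouse 21DL (edgeR adjusted p = 0.0397, range over mice left out 0.0397 to 0.202). DESeq2 called it in C57BL/6J (adjusted p = 0.0291, range over the alternatives 0.0291 to 0.180) and in B6D2F1N (adjusted p = 0.0206, range 0.0206 to 0.133). Over both strains without mouse 12BL the log2 difference was 2.02 (edgeR adjusted p = 0.01).

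Crhr1 (ENSMUSG00000018634, GRCm38 chr11:104132855-104175523), the main receptor for Crh, was above the floor in every library. Its level was 4.09 to 16.2 CPM (median 8.95) in anterior and 2.64 to 13.2 CPM (median 6.36) in posterior libraries, and the groups overlapped. It was lower in the posterior portion in 9 of 16 mice, with a log2 difference of -0.31 ± 0.230 (edgeR adjusted p = 0.506). Crhr1 was higher in the posterior portion in 2 of 9 standard-housed and in 5 of 7 enriched mice, and the difference between the housings in this respect was 0.79 ± 0.447 on the log2 scale (edgeR adjusted p = 1).

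Crhbp (ENSMUSG00000021680, GRCm38 chr13:95431371-95444924), the protein that binds Crh and Ucn, was high in both portions and fell from the anterior to the posterior one. It ranged from 104 to 386 CPM (median 224) in anterior and from 33.2 to 273 CPM (median 112) in posterior libraries. The ranges overlapped between portions, but 8 of the 19 posterior libraries lay below the lowest anterior one, and 4 of these came from standard-housed B6D2F1N mice.

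Crhbp was lower in the posterior portion in 14 of 16 mice, with a median change of -79.4 CPM. The exceptions were 13DR (241 CPM anterior, 262 CPM posterior) and 11DL (252 and 273 CPM). The log2 difference was -0.92 ± 0.193 over both strains (SE, edgeR adjusted p = 0.00218), and -0.95 without mouse 12BL (edgeR adjusted p = 0.00304). In B6D2F1N it was -1.16 ± 0.271 (lower in 9 of 10 mice, edgeR adjusted p = 0.0172), and in C57BL/6J -0.58 ± 0.158 (lower in 5 of 6 mice, edgeR adjusted p = 0.0511). The C57BL/6J difference was -0.71 and passed without mouse 13DR (edgeR adjusted p = 0.0115, range over mice left out 0.0115 to 0.230), and it passed by DESeq2 (adjusted p = 0.0113) and with no minimum count (edgeR adjusted p = 0.0229, range over the alternatives 0.0113 to 0.258). In B6D2F1N it was -1.0 and missed the threshold when the mouse was not used as a block (edgeR adjusted p = 0.0734, range over the alternatives 0.00142 to 0.0734).

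**Figure D3:**
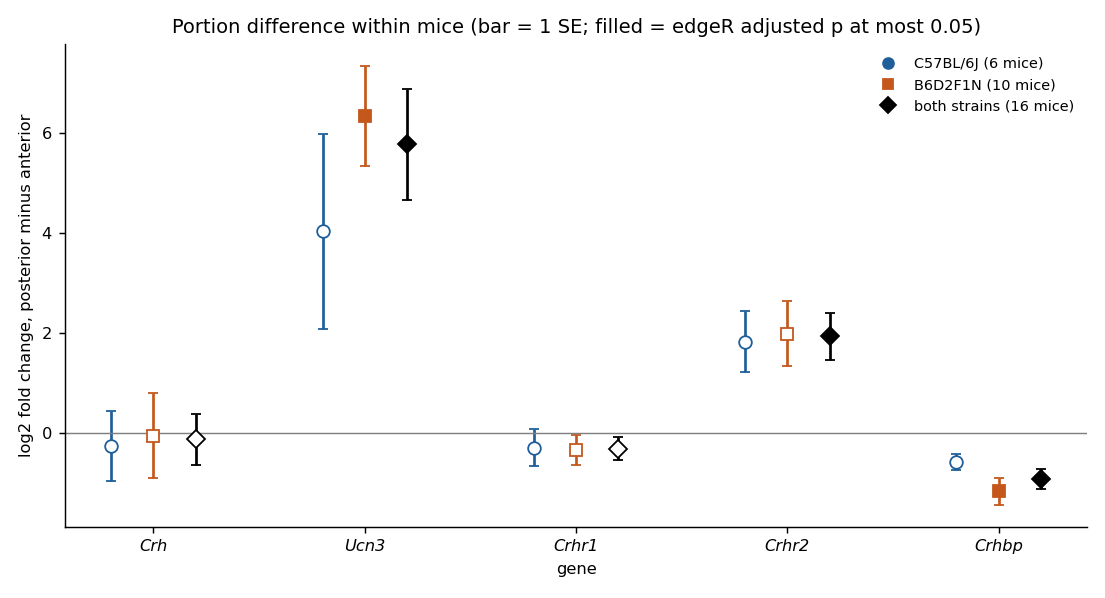
Log2 difference between the posterior and anterior portion (vertical axis) of the members other than Ucn (horizontal axis) in C57BL/6J, B6D2F1N and both strains, with bars of 1 standard error and filled symbols where the edgeR test passed. The differences for Ucn3 and Crhr2 lie above 0 and those for Crhbp below 0 in each strain.

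A difference past the threshold in one strain alone is not shown to differ between the strains, so the difference between strains was tested itself. Between strains the portion difference changed by 2.25 ± 2.63 for Ucn3, 0.15 ± 0.951 for Crhr2 and -0.59 ± 0.372 for Crhbp on the log2 scale (edgeR adjusted p = 1 for each). By edgeR 0 of 6 members and 0% of all genes passed in the comparison of portion by strain (871 genes at an unadjusted p under 0.05, 6 called by DESeq2). In the comparison of portion by housing 0 of 6 members and 0% of genes passed by edgeR (968 genes at an unadjusted p under 0.05, 5 called by DESeq2).

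The groups of strain, housing and portion ordered the members differently. For Ucn3 the mean was highest in the posterior portion of enriched B6D2F1N mice (15.5 ± 17.3 CPM, SD, n = 6), followed by the posterior portions of standard C57BL/6J (9.20 ± 10.7, n = 4), standard B6D2F1N (6.85 ± 6.45, n = 5) and enriched C57BL/6J mice (3.62 ± 5.27, n = 4). The 4 anterior groups had means of 0.111 to 0.71 CPM, and no step from one group to the next exceeded the spread. For Crhr2 the order began with enriched B6D2F1N posterior (7.27 ± 1.66 CPM), standard C57BL/6J posterior (4.56 ± 1.24) and standard B6D2F1N posterior (4.46 ± 2.2). There followed enriched C57BL/6J anterior (3.02 ± 2.08), standard B6D2F1N anterior (3.00 ± 2.87), enriched C57BL/6J posterior (2.71 ± 1.66), enriched B6D2F1N anterior (1.31 ± 1.33) and standard C57BL/6J anterior (0.788 ± 0.318). Only the first of these 7 steps for Crhr2 was larger than the SD of both groups.

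Crhbp was highest in the anterior groups, enriched B6D2F1N (250.1 ± 123 CPM), standard C57BL/6J (234 ± 51.0), standard B6D2F1N (209 ± 63.8) and enriched C57BL/6J (207 ± 15.8). The posterior groups followed as standard C57BL/6J (173 ± 70.9 CPM), enriched B6D2F1N (163 ± 71.6), enriched C57BL/6J (109.5 ± 25.5) and standard B6D2F1N (70.2 ± 48.7). All anterior means for Crhbp thus lay above all posterior means, while 0 of the 7 single steps exceeded the spread. Crhr1 means ran from 11.3 ± 2.62 CPM in standard B6D2F1N anterior to 5.52 ± 0.719 CPM in standard C57BL/6J posterior. Crh means ran from 11.2 ± 19.8 CPM in standard C57BL/6J anterior, where mouse 13DR was the high one, to 0.773 ± 0.374 CPM in enriched B6D2F1N posterior. For these 2 genes no step exceeded the spread either.

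The strains were then compared within each portion and housing, as B6D2F1N over C57BL/6J. No member passed in edgeR in any of these comparisons. In standard housing 0 of 6 members passed in the anterior portion, against 0.37% of genes (2187 genes at an unadjusted p under 0.05, 254 called by DESeq2), and 0 of 6 in the posterior portion, against 0.373% (2605 and 392 genes). In enriched housing 0 of 6 passed in the anterior portion by edgeR, against 0.0639% (1016 and 137 genes), and 0 in the posterior portion, against 0.394% (2336 and 342 genes), where Ucn had too few counts to be tested. Over both housings 0 of 6 passed by edgeR in the anterior portion, against 0.543% (1822 and 292 genes), and 0 of 6 in the posterior portion, against 0.901% (3209 and 560 genes). Single mice moved some of these gene counts: enriched anterior libraries gave 15 genes with all mice, 6 without 12DL and 1 without 21CL, and anterior libraries over both housings gave 143 genes with all mice, 65 without 12DL and 62 without 21CL. Without 12DL or 21CL, a single enriched C57BL/6J anterior library is left, which is assumed to vary like the other groups.

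Crhbp differed between most standard-housed mice of the strains in the posterior portion, without passing the test when all mice were used. The C57BL/6J libraries had 90.2 CPM in 12AL, 157 in 23DR, 183 in 21AL and 262 in 13DR. The B6D2F1N libraries had 33.2 CPM in 22ALR, 51.4 in 23AR, 54.0 in 11CR, 56.4 in 21DL and 156 in 12BL. All B6D2F1N libraries except that of 12BL, the mouse without Xist counts, lay below all C57BL/6J libraries. The log2 difference was -1.29 ± 0.397 with all mice (edgeR adjusted p = 0.338, range over the alternatives 0.0838 to 0.339). Without 12BL it was -1.81 ± 0.304 and passed (edgeR adjusted p = 0.0154, range over mice left out 0.0154 to 0.642). The number of genes that passed in this comparison was 166 without 12BL and 94 with it. It was 61 without 13DR, 59 without 21AL and 60 without 21DL. With all mice, 5 of 8 choroid plexus markers (list median 1.34), 3 of 6 medial amygdala markers (3.17) and 3 of 8 interneuron class markers (-0.39) had an unadjusted p under 0.05 in this comparison. This held for 2605 of 25171 genes. Of these markers, 0 were called by edgeR, the median over all genes was 0.05, and the markers' part was not tested. In enriched housing, B6D2F1N and C57BL/6J posterior libraries overlapped for Crhbp (81.4 to 273 CPM and 91.4 to 146 CPM).

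**Figure D4:**
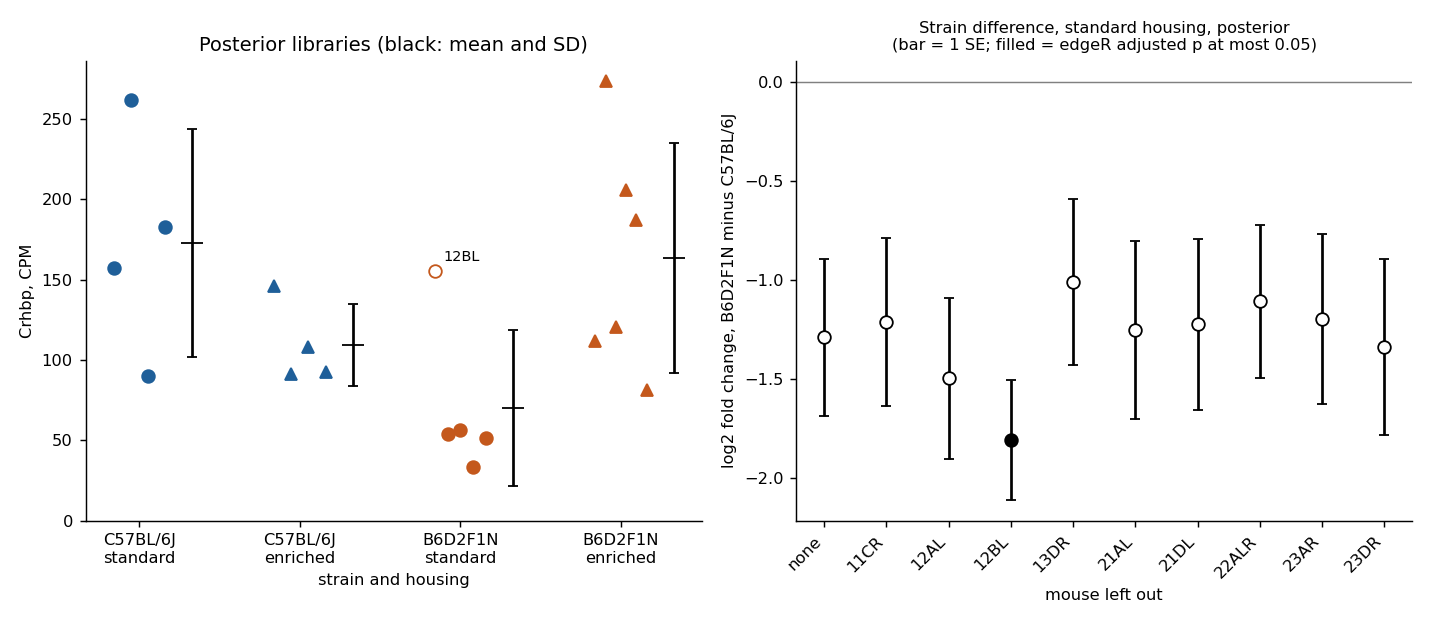
Crhbp in the posterior portion: CPM (left, vertical axis) in the 4 groups of strain and housing, with 1 point per library and the mean and SD, and the log2 difference between strains in standard housing (right, vertical axis) with each mouse left out in turn (horizontal axis), with bars of 1 standard error. Mouse 12BL is the highest standard-housed B6D2F1N library, at 156 CPM, and the filled symbol marks the fit without it, which passed.

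For Crhr2, posterior libraries of enriched mice had 2.62 CPM in 12DL, 0.971 in 11AL, 2.31 in 13CR and 4.96 in 21CL for C57BL/6J, and 5.40 to 9.72 CPM in the 6 B6D2F1N libraries. These groups did not overlap. The share of all genes that separated in this way was not counted, here or for Crhbp. The log2 difference was 1.43 ± 0.452 (edgeR adjusted p = 0.372). It was among the 342 genes that DESeq2 called in this comparison (adjusted p = 0.0380, range over the alternatives 0.0380 to 0.372). In the same comparison 6 of 8 choroid plexus markers (list median 2.61), 5 of 6 oligodendrocyte markers (-1.10) and 4 of 7 excitatory markers (-0.90) had an unadjusted p under 0.05. This held for 2336 of 25640 genes. Of these markers, 0 were called by edgeR, and the median over all genes was 0.03. Choroid plexus sums there were 138 to 1395 CPM in C57BL/6J and 1133 to 14610 CPM in B6D2F1N, and the part of these markers in the Crhr2 difference was not tested. In standard-housed anterior libraries Crhr2 differed by 1.94 ± 0.739 (edgeR adjusted p = 0.539), and by 1.12 without mouse 21DL (edgeR adjusted p = 0.797). Crh in standard-housed anterior libraries differed by -2.94 ± 0.995 (edgeR adjusted p = 0.496), which rested on mouse 13DR, since the log2 difference was 0.07 without it.

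Enriched and standard housing were compared within each strain and portion, as enriched over standard. By edgeR 0 of 6 members passed in each. In C57BL/6J the background was 0% of genes in the anterior portion (1418 genes at an unadjusted p under 0.05, 100 called by DESeq2) and 0.0163% in the posterior portion (2515 and 319 genes). The 4 genes behind that share, named after their values were seen, were Padi2 (log2 difference 2.86), Trp53inp2 (1.52), Mbp (1.97) and 9130024F11Rik (3.95), each with an edgeR adjusted p of 0.0366. This count was 172 without mouse 12DL and 0 without any other single mouse. In B6D2F1N the background by edgeR was 0% in the anterior portion (1553 genes at an unadjusted p under 0.05, 8 by DESeq2) and 0% in the posterior portion (1716 and 13 genes), where it was 10 genes without mouse 12BL. Over both strains 0 of 6 members passed by edgeR in either portion, against 0% in the anterior (1294 genes at an unadjusted p under 0.05, 2 by DESeq2) and 0% in the posterior portion (2522 and 28 genes), where 1 gene passed without mouse 21AL.

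In posterior libraries of B6D2F1N mice Crhbp was 33.2 to 156 CPM in standard and 81.4 to 273 CPM in enriched housing. Apart from mouse 12BL, all standard-housed libraries lay below all enriched ones. The log2 difference was 1.20 ± 0.387 with (edgeR adjusted p = 0.752) and 1.71 ± 0.324 without 12BL (edgeR adjusted p = 0.131). In C57BL/6J the Crhbp difference between housings had the opposite sign in the posterior portion, -0.66 ± 0.287 (edgeR adjusted p = 0.480). The difference between these effects, tested as strain by housing, was 1.89 ± 0.539 (edgeR adjusted p = 0.491, range over the alternatives 0.154 to 0.575). It was 2.41 ± 0.464 without 12BL (edgeR adjusted p = 0.0591), a setting chosen after seeing the data, in which 10 genes passed upwards and 4 downwards. For strain by housing in the posterior portion, 5 of 7 excitatory markers (list median -1.46), 3 of 6 oligodendrocyte markers (-1.32) and 3 of 8 interneuron class markers (0.56) had an unadjusted p under 0.05, with 0 called by edgeR. An unadjusted p under 0.05 was seen there for 2335 of 27871 genes. For housing in B6D2F1N posterior libraries it was seen for 3 of 7 excitatory markers (list median -0.80) and 1716 of 26028 genes. In C57BL/6J posterior libraries it was seen for 4 of 7 excitatory (0.67), 3 of 8 interneuron class (-0.19), 3 of 5 hippocampal (0.96), 4 of 5 ependymal (1.58) and 5 of 6 oligodendrocyte markers (1.42), and for 2515 of 24526 genes. The part of these markers in the Crhbp differences was not tested. With all mice 0 of 6 members passed by edgeR for strain by housing, against 0% of genes in the anterior (1576 at an unadjusted p under 0.05, 8 by DESeq2) and 0% in the posterior portion (2335 and 31 genes).

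In anterior libraries of C57BL/6J mice Crh was 0.454 CPM in 23DR, 1.61 in 21AL, 2.01 in 12AL and 40.8 in 13DR in standard housing, and 0.926 in 21CL and 1.20 in 12DL in enriched housing. Both enriched libraries thus lay within the standard-housed range. The log2 difference was -3.38 ± 1.49 (edgeR adjusted p = 0.789) and rested on mouse 13DR, since it was -0.38 without it (edgeR adjusted p = 0.960). It passed with no minimum count (edgeR adjusted p = 3.29e-05, range over the alternatives 3.29e-05 to 1). In this comparison 5 of 7 striatal (list median 1.49) and 5 of 6 oligodendrocyte markers (0.95) had an unadjusted p under 0.05, against 1418 of 22865 genes. Of these markers, 0 were called by edgeR, the median over all genes was -0.01, and the markers' part was not tested.

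Posterior libraries held more Ucn counts in standard than in enriched housing in both strains. The 5 libraries of standard-housed B6D2F1N mice held 98 Ucn counts and the 6 of enriched B6D2F1N mice held 1. In C57BL/6J the 4 standard libraries held 23 counts and the 4 enriched ones 1. All 10 enriched posterior libraries were thus at or under the floor, and 67 of the standard-housed counts came from mouse 23AR. The standard-housed posterior libraries of mice 23DR, 13DR and 12BL had 0 Ucn counts. Ucn did not pass by edgeR in B6D2F1N (unadjusted p = 7.02e-04) or over both strains (unadjusted p = 4.36e-04). In B6D2F1N its adjusted p was 0.107 to 0.749 over the alternatives (edgeR or DESeq2). In anterior libraries of B6D2F1N the 5 standard-housed libraries held 66 counts, of which 39 came from mouse 12BL. The 5 enriched ones held 29 counts, of which 25 came from mouse 11DL.

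The last comparison was between mice with optimistic and pessimistic bias in the judgement test. The 4 optimistic mice were standard-housed, and of the 5 pessimistic mice all but 12BL were enriched, so bias and housing largely coincide here and cannot be told apart without 12BL. The fits had terms for strain and housing, so each difference rests on mouse 12BL against the standard-housed optimistic mice. By edgeR 0 of 6 members passed in the anterior portion, against 0.00414% of genes (997 genes at an unadjusted p under 0.05, 21 by DESeq2), and 0 of 6 in the posterior portion, against 0.00396% (885 and 19 genes). The single gene in each case was Xist, named after its values were seen, with 0 counts in the pessimistic mouse 12BL. In the anterior portion 2 genes passed without mouse 11DL. Posterior Crhbp was 33.2 to 183 CPM in optimistic and 91.4 to 273 CPM in pessimistic mice, and these ranges are not adjusted for housing. Posterior Ucn had 101 counts in the 4 optimistic libraries, 67 of them in mouse 23AR, and 1 count in the 5 pessimistic libraries. Anterior Ucn had 22 counts in the 4 optimistic libraries, 19 of them in mouse 22ALR, and 69 in the 4 pessimistic libraries, 39 of them in 12BL and 25 in 11DL.

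The other genes of the pathway were examined as lists. Of all genes, 3.64% passed in C57BL/6J, 4% in B6D2F1N and 8.6% over both strains, with median log2 differences of 0.01, 0.15 and 0.12, and the counts and medians of every list are read against these. Of 7 genes that process or break down the peptides, 0 rose and 2 fell in the posterior portion in C57BL/6J (list median -0.21) and in B6D2F1N (list median -0.45), and 4 fell over both strains (list median -0.30). The 2 were the prohormone convertases Pcsk1 (log2 difference -1.09 over both strains) and Pcsk2 (-1.30), and over both strains Scg5 (-0.29), a chaperone of Pcsk2, and the carboxypeptidase Cpe, named after its values were seen, also fell. Of 22 genes of receptor signalling, 0 rose and 3 fell in C57BL/6J (median -0.10), 1 rose and 4 fell in B6D2F1N (median -0.29) and 2 rose and 8 fell over both strains (median -0.18). The adenylyl cyclases Adcy1 (-1.41 over both strains) and Adcy2 (-1.06) and the protein kinase A subunit Prkar1b (-0.85) fell in each strain. Of 13 regulators of Crh transcription, 2 rose in C57BL/6J (median 0.01), 0 in B6D2F1N by edgeR (median 0.09, 5 at an unadjusted p under 0.05, against 4312 of 27761 genes) and 2 over both strains (median 0.07). These were the estrogen receptor Esr1 (1.68 over both strains) and the mineralocorticoid receptor Nr3c2 (0.83). Esr1 is also in the list of medial amygdala markers. Ucn2 (ENSMUSG00000049699, GRCm38 chr9:108986010-108987164) was at or under 3 counts in 32 of 35 libraries, with at most 10 counts.

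Between strains, few genes of these lists passed. Scg5 was higher in B6D2F1N in the anterior portion in standard housing (0.80, edgeR adjusted p = 0.0439) and over both housings in the anterior (0.91, edgeR adjusted p = 0.00173) and posterior portion (0.78, edgeR adjusted p = 0.00822). Pam, which amidates peptides such as Crh, was higher in B6D2F1N in the anterior portion in standard housing (0.90, edgeR adjusted p = 0.0237) and in the posterior portion over both housings (0.85, edgeR adjusted p = 0.0187). Rapgef4, a cyclic AMP sensor, was lower in the posterior portion in enriched B6D2F1N mice (-1.16, edgeR adjusted p = 0.0245). These were 2 of 7, 1 of 7 and 2 of 7 processing genes, against 0.37%, 0.543% and 0.901% of all genes, and 1 of 22 signalling genes, against 0.394%. The list medians were -0.34, 0.43 and 0.10 for processing and -0.26 for signalling, against 0.02, 0.03, 0.04 and 0.03 over all genes. In standard-housed anterior libraries 4 of 7 processing genes had an unadjusted p under 0.05, against 2187 of 24305 genes.

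Markers of other cell types also moved with the portion. The choroid plexus list rose in 5 of 8 genes in C57BL/6J, 8 of 8 in B6D2F1N and 8 of 8 over both strains (median 5.06), and its summed level was higher in the posterior portion in 16 of 16 mice. The sum ranged from 11.4 to 962 CPM (median 19.1) in anterior and from 138 to 14610 CPM (median 1495) in posterior libraries, with Ttr as the most abundant gene. The ependymal list rose in 2 of 5, 4 of 5 and 5 of 5 genes (median 3.95), with sums of 6.23 to 32.8 CPM (median 11.3, mostly Rarres2) in anterior and 11.4 to 191 CPM (median 38.0, mostly Tmem212) in posterior libraries, higher in 16 of 16 mice. In the meningeal list 1 of 5 genes, Dcn, rose in each fit (4.24 over both strains, list median 0.76), and sums were 31.2 to 80.0 CPM (median 57.7) and 47.0 to 1758 CPM (median 743), higher in 16 of 16 mice. The posterior libraries with 0 Ucn3 counts had choroid plexus sums of 1395 CPM (12DL), 4555 CPM (22ALR) and 1133 CPM (11DL). No gene of these lists was at 0 in all libraries of a portion. The part of these cells in the differences between portions was not tested.

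**Figure D5:**
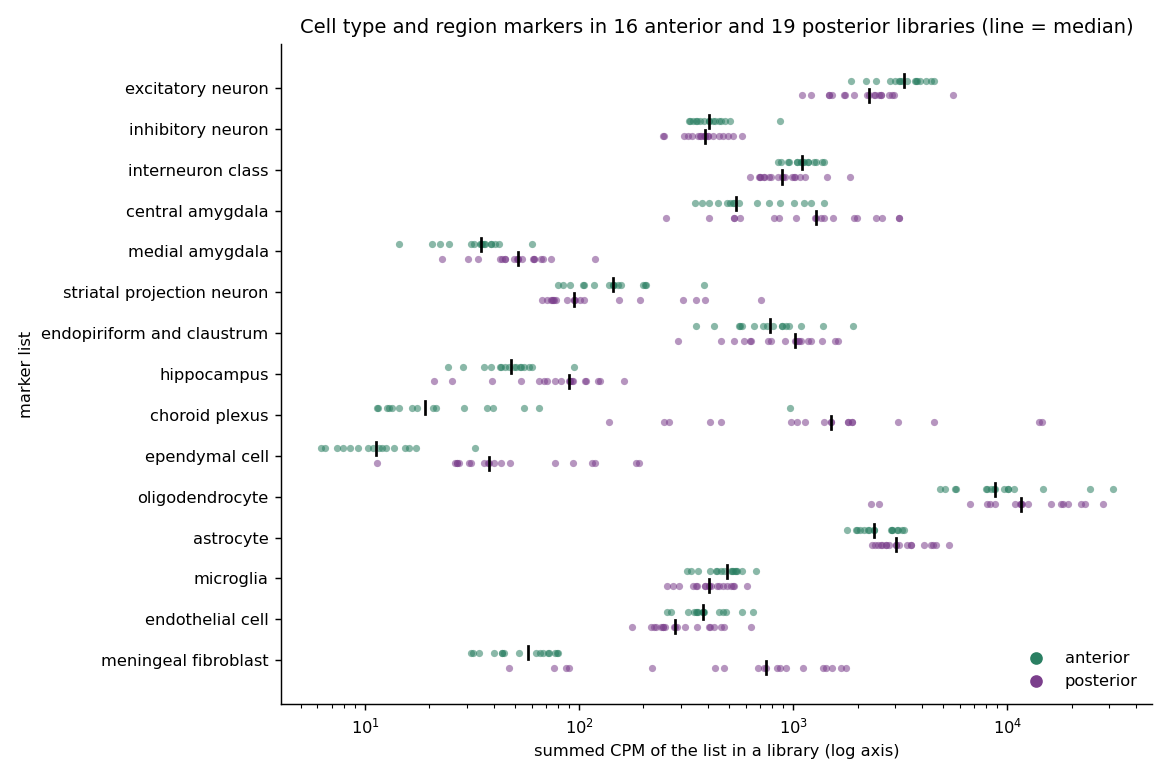
Summed level of the marker lists in CPM (horizontal log axis, lists on the vertical axis) in anterior and posterior libraries, with 1 point per library and a line for the median. The choroid plexus sums lie between 11.4 and 962 CPM in anterior and between 138 and 14610 CPM in posterior libraries.

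Neuronal markers moved in both directions. Of 7 excitatory markers 1 rose and 3 fell in each strain and 1 rose and 4 fell over both (median -0.87): Slc17a6 rose (1.46), and Slc17a7 (-1.27), Tbr1 (-2.32) and Neurod6 (-1.92) were among those that fell. Their sum was 1872 to 4548 CPM (median 3308) in anterior and 1095 to 5579 CPM (median 2253) in posterior libraries, with Camk2a as the most abundant. None of 6 inhibitory markers passed in edgeR (0 called, 1 at an unadjusted p under 0.05 over both strains, median -0.16). The inhibitory sum was 325 to 873 CPM (median 405) in anterior and 247 to 576 CPM (median 386) in posterior libraries, most of it Gad1. Of 8 interneuron class markers 2 rose and 5 fell in C57BL/6J, 1 rose and 2 fell in B6D2F1N and 2 rose and 4 fell over both strains (median -0.65). Calb2 (1.84) and Htr3a (0.80) rose, and Npy (-1.45) and Vip (-0.90) were among those that fell. Interneuron sums were 851 to 1389.7 CPM (median 1102) and 628 to 1845 CPM (median 884), with Sst as the most abundant.

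Markers of neighbouring regions were also read, since Ucn3 is known from the medial amygdala and Crh from the central amygdala. Of the 6 medial amygdala markers 1, Esr1, rose in C57BL/6J, where 5 were tested, 0 in B6D2F1N by edgeR (1 at an unadjusted p under 0.05) and 1 over both strains (median 0.71). Esr1 was 1.67 to 12.1 CPM (median 5.15) in anterior and 2.13 to 55.0 CPM (median 18.2) in posterior libraries. The summed level of this list is not given. Of 8 central amygdala markers 1, Nts, rose in C57BL/6J, 0 passed in B6D2F1N and 1, Tac2, fell over both strains (median 0.33). The central amygdala sum was 348 to 1395 CPM (median 543) and 254 to 3135 CPM (median 1279), mostly Penk, higher in 13 of 16 mice. Of 5 hippocampal markers 2 rose in C57BL/6J, 1 in B6D2F1N and 2, C1ql2 (3.62) and Dsp (5.67), over both strains (median 0.97), with sums of 24.4 to 94.9 CPM (median 48.2) and 21.0 to 162 CPM (median 89.9), mostly Spink8. Of 7 striatal markers 1, Drd1, fell in C57BL/6J and 0 passed in B6D2F1N or over both strains by edgeR (median -0.44), with sums of 79.6 to 382 CPM (median 143, mostly Pde10a) and 66.9 to 706 CPM (median 95.2, mostly Adora2a). Of 4 markers of the endopiriform nucleus and claustrum 0 passed by edgeR (2 at an unadjusted p under 0.05 over both strains, median -0.31), with sums of 350 to 1896 CPM (median 783) and 289 to 1629 CPM (median 1020.03), mostly Synpr. Tac2 was named after its values were seen. Whether the captured area differed between portions was not tested.

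Among glia and vessels, 3 of 5 astrocyte markers rose in C57BL/6J, 1 in B6D2F1N and 3 over both strains (median 0.36), with Gfap at 1.71. Astrocyte sums were 1785 to 3294 CPM (median 2386) in anterior and 2332 to 5356 CPM (median 3036) in posterior libraries, mostly Slc1a3, higher in 15 of 16 mice. Of 4 endothelial markers 0 passed in either strain by edgeR and 1, Flt1, named after its values were seen, fell over both (median -0.33), with sums of 258 to 652 CPM (median 379) and 176 to 637 CPM (median 280), mostly Slco1a4. Of 6 oligodendrocyte markers 0 passed by edgeR (0 at an unadjusted p under 0.05, median 0.15). Of 5 microglial markers 0 passed by edgeR (2 at an unadjusted p under 0.05 over both strains, median -0.19), with sums of 319 to 674 CPM (median 493) and 258 to 606 CPM (median 406), mostly P2ry12. Between groups, 1 of 8 choroid plexus markers, Kl, was higher in B6D2F1N in the posterior portion over both housings (2.29, edgeR adjusted p = 0.0196, list median 1.89, 7 of 8 at an unadjusted p under 0.05, against 3209 of 27871 genes). Of 6 oligodendrocyte markers 1, Mbp, was higher in enriched C57BL/6J posterior libraries (list median 1.42).

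Genes with the pattern most like each member were ranked by Pearson's r of log2 CPM over the 35 libraries, as a description. These libraries share mice and portions, so a gene that differs between portions can rank high for that alone. For Crhbp they were Pter (r = 0.906), Glipr1 (0.902), C1ql3 (0.892), Ctsl (0.883) and Emb (0.857), and within a portion the r of Pter was 0.840 in anterior and 0.868 in posterior libraries. For Ucn3 they were Frem3 (0.754), Agt (0.742), Sparc (0.719), Snx25 (0.701) and Bbox1 (0.694). For Crhr2 they were Col6a1 (0.767), Pnck (0.756), Agt (0.745), Samd14 (0.743) and Fam228b (0.742). The r of Agt with Crhr2 was 0.752 in anterior and -0.0134 in posterior libraries. For Crhr1 they were Ptprm (0.627), Itga9 (0.617), Ache (0.587), Birc6 (0.564) and Sema4g (0.561). For Crh, 4 of the 5 are given: Arsb (0.680), Retreg3 (0.634), Zfp850 (0.633) and Stbd1 (0.620), and r for Arsb was 0.542 without the anterior libraries of mice 13DR and 11DL. Ucn, with a mean under 1 CPM, was left out.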

How the data were processed

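The authors sequenced polyadenylated RNA from laser-captured amygdala cells of 19 mice and deposited 35 libraries as the number of reads per gene, in the unit count, for 52636 Ensembl genes of GRCm38. Per the labels, reads were made with bcl2fastq (the labels give no version), checked with FastQC 0.11.7, trimmed with Trimmomatic 0.38, aligned with HISAT2 2.1.0, sorted with SAMtools 1.8 and counted with HTSeq 0.11.2. The strand setting and the annotation release of that counting are not given in the sources used here. Of the reads, 13.7 to 26.4% were in no gene, 3.06 to 3.74% in more than 1 gene and 6.23 to 10.9% aligned in more than 1 place, and these were left out. None of 595 pairs of libraries was identical, and 52403 gene identifiers matched the GENCODE annotation, from which positions were taken. No member overlapped another gene.

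Each comparison was a quasi-likelihood F test of edgeR 4.0.16 (R 4.3.3, limma 3.58.1) on counts with TMM scaling, over genes with at least 10 counts in total, with Benjamini-Hochberg adjustment over all genes tested and a threshold of 0.05. Portion comparisons used the mouse as a block, and only the 16 mice with both portions enter them. Bias comparisons had terms for strain and housing. The pairing comes from the mouse named in the labels. Deviations from group means over 16022 genes had a median r of 0.0481 between the portions of a mouse (range -0.105 to 0.222) and -0.0228 between portions of 54 pairs of different mice of a group. Subtracting the group mean by itself lowers r between different mice, and the range within mice included negative values. These values therefore cannot decide whether the pairing is right. Standard errors are the log2 difference over the square root of F. Levels are CPM scaled by TMM over all libraries, and per kb of exon where genes are compared. Log2 CPM used a prior count of 2. Floors of 3 counts cover counting error only, since reads without molecular identifiers are not independent molecules. The fits were tested on simulated counts.

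The alternatives were DESeq2 1.42.0 (likelihood ratio test for portion and bias, Wald test otherwise), DESeq2 size factors in edgeR, no minimum count, the filter of edgeR's filterByExpr, all 4 strain and housing groups in 1 fit, no block by mouse, and each mouse left out in turn. Comparisons of portion by strain, portion by housing and strain by housing without mouse 12BL were added after seeing the data. In DESeq2 adjusted p-values were taken as the tool gives them.

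The members and the lists were chosen with earlier results of these data known. The lists were peptide processing, receptor signalling, regulators of Crh transcription, Ucn2 and markers of excitatory, inhibitory and interneuron classes, central and medial amygdala, striatum, endopiriform nucleus and claustrum, hippocampus, choroid plexus, ependyma, oligodendrocytes, astrocytes, microglia, endothelium and meninges, with Xist and Y-linked genes as a check of sex. Named from a list were up to 4 genes with the smallest p among those past the threshold in either strain's portion comparison, and any past it in a strain or housing comparison. Named beside each member were the 5 genes with the highest r (4 of them for Crh), for members and genes with a mean of at least 1 CPM. Promoters were read from the RefSeq table of GRCm38.p6. Results of the authors' own tables were not used.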

Additional observations from a re-analysis of the deposited data

Results flagged for a closer look

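Each member was examined in each group of 4 or more libraries, 40 combinations in all, leaving out Ucn in both enriched posterior groups, where every library was at or under 3 counts, for a highest or lowest library whose gap to its nearest neighbour took up most of the range of the group (Dixon's criterion), and 8 were found. For normally distributed values, chance alone gives a finding in about 1 in 20 of the combinations examined; for Ucn3, where all other libraries of a group were at 0, any library above 0 is found. None was given an explanation.

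Crh was 40.8 CPM in the anterior portion of the standard-housed C57BL/6J mouse 13DR, and 0.454 to 2.01 CPM in the other libraries of that group. Ucn3 was 2.84 CPM in the anterior portion of the standard-housed C57BL/6J mouse 23DR and 0 in the rest of its group. In enriched C57BL/6J mice posterior Ucn3 was 11.5 CPM in mouse 13CR and 0 to 1.83 CPM in the others. In enriched B6D2F1N mice anterior Ucn3 was 0.557 CPM in mouse 21BL, the mouse with the highest anterior choroid plexus sum (962 CPM), and 0 in the others. Crhr2 was 8.05 CPM in the anterior portion of the standard-housed B6D2F1N mouse 21DL, and 1.16 to 2.57 CPM in the others.

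Crhbp was 156 CPM in the posterior portion of mouse 12BL, the standard-housed B6D2F1N mouse with 0 Xist counts, and 33.2 to 56.4 CPM in the other 4 libraries of its group. Ucn was 2.94 CPM in the posterior portion of the standard-housed B6D2F1N mouse 23AR (others 0 to 0.769 CPM) and 1.11 CPM in the anterior portion of the enriched B6D2F1N mouse 11DL (others 0 to 0.203 CPM).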

How the results depend on the processing

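Over both strains, Ucn3, Crhr2 and Crhbp differed between portions in the same direction and passed under every alternative and with each mouse left out (adjusted p 2.37e-05 to 0.0244 for Ucn3, 3.55e-04 to 0.0185 for Crhr2 and 1.23e-04 to 0.0193 for Crhbp, edgeR or DESeq2). Of 552 log2 differences of members under the alternatives, 543 kept their sign and side of the threshold, and 1 changed sign. Of 1134 with a mouse left out, 1051 kept both, and 79 changed sign. No member was called in 19 of the 21 comparisons, so most of these differences began above the threshold. These counts therefore do not measure how firm the called differences are. Ucn, Ucn2 and anterior Ucn3 were mostly at or under 3 counts, so their levels are poorly measured at this depth. Whether depth had a part in the low counts was not tested. Where a value below differs from the one reported, the cause was not tested. The comparison of bias without mouse 12BL could not be fitted, since bias and housing then coincide and cannot be told apart.

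Members called were 2 by DESeq2 and 2 with no minimum for portion in C57BL/6J (0 to 1 with a mouse left out). The alternatives called 706 to 1535 genes there, 1535 of them by DESeq2. For portion in B6D2F1N, where 2 are reported, they were 3 by DESeq2, which added Crhr2 (2 to 3 with a mouse left out, 3 without 21DL). The alternatives called 1084 to 1994 genes there, 1994 of them by DESeq2. For strain in enriched posterior libraries 1 was called by DESeq2, with 342 genes. For housing in C57BL/6J anterior libraries 1, Crh, was called with no minimum, with 274 genes. For strain in standard posterior libraries 0 to 1 were called with a mouse left out, with 59 to 166 genes. With no replicate block, that is without pairing the portions of a mouse, 1 member, Ucn3, was called for portion in B6D2F1N, 3955 genes were called for portion over both strains, and the log2 difference of Ucn in C57BL/6J was 0.054. Leaving out the block changed no other call of a member.

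By DESeq2 the genes called were 1535 for portion in C57BL/6J, 1994 in B6D2F1N, 6 for portion by strain and 5 by housing. For strain they were 254 in standard anterior, 392 in standard posterior, 137 in enriched anterior and 342 in enriched posterior libraries, and 292 anterior and 560 posterior over both housings. For housing they were 100 in C57BL/6J anterior, 319 in C57BL/6J posterior, 8 in B6D2F1N anterior and 13 in B6D2F1N posterior libraries, and 2 anterior and 28 posterior over both strains. They were 8 anterior and 31 posterior for strain by housing and 21 anterior and 19 posterior for bias. With no minimum count the genes called were 2 for portion by strain, 57 for strain in enriched anterior libraries, 274 for housing in C57BL/6J anterior and 112 in C57BL/6J posterior libraries, and 22 anterior and 79 posterior for bias. With all 4 groups in 1 fit they were 44 for strain in enriched anterior libraries and 0 for housing in C57BL/6J posterior libraries.

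With a mouse left out the genes called were 602 to 1070 for portion in C57BL/6J (602 without 21AL, 606 without 23DR), 59 to 166 for strain in standard posterior libraries, 1 to 15 for strain in enriched anterior libraries (1 without 21CL, 6 without 12DL), 0 to 172 for housing in C57BL/6J posterior libraries and 0 to 10 in B6D2F1N posterior libraries. They were 62 to 141 for strain in anterior libraries over both housings (62 without 21CL, 65 without 12DL), 1 to 2 for bias in anterior libraries, 0 to 1 for housing in posterior libraries over both strains and 14 for strain by housing in posterior libraries without 12BL.

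Log2 differences that changed sign with a mouse left out ran as follows. For portion, Crh ran from -0.78 to 0.41 in C57BL/6J, from -0.30 to 0.26 in B6D2F1N and from -0.28 to 0.11 over both strains, and Ucn from -1.28 to 0.26 in B6D2F1N. For portion by housing, Ucn3 was 0.41 without 12BL. For strain in standard anterior libraries Crh ran from -3.50 to 0.071 and Ucn3 from -4.02 to 4.39, and in standard posterior libraries Crh ran from -0.36 to 0.53, Ucn3 from -0.93 to 0.43 and Crhr2 from -0.27 to 0.16. In enriched anterior libraries Ucn3 ran from -5.95 to 4.34. For housing, Ucn3 ran from -6.76 to 5.82 in C57BL/6J anterior and from -4.46 to 1.45 in B6D2F1N anterior libraries, and Crh from -1.06 to 0.56 in C57BL/6J posterior libraries. For strain over both housings in anterior libraries Crh ran from -1.18 to 0.61, Ucn3 from -4.14 to 1.42, Crhr2 from -0.032 to 0.87 and Crhbp from -0.038 to 0.15. For housing over both strains Crh ran from -1.62 to 0.16, Ucn3 from -3.50 to 2.86, Crhr2 from -0.13 to 0.76 and Crhbp from -0.065 to 0.12 in anterior libraries, and Ucn3 from -1.01 to 0.32 and Crhr2 from -0.27 to 0.11 in posterior libraries. For bias, Ucn3 ran from -0.38 to 3.22, Crhr1 from -0.33 to 0.062, Crhr2 from -1.11 to 0.55 and Crhbp from -0.34 to 0.040 in anterior libraries, and Ucn3 from -2.24 to 0.39 and Crhr2 from -0.0045 to 0.46 in posterior libraries. None of these was called in the fit with all mice.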
